A study of Mus musculus with 12 samples.

Results

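The miRNAs miR-680 to miR-721 were named in one block after small RNAs had been sequenced from mouse embryos. They were followed here as all mouse probes of that block except miR-706 and the starred strands, which gave 41 of the 417 mouse miRNA probes measured. The numbering alone set this membership. The samples were RNA from BC3H1, a mouse line derived from a brain tumour that has muscle-like properties, and each was hybridised to a miRCURY LNA array, which captures mature miRNAs on short probes that contain locked nucleic acids. RR_Rap was RR1, a line selected from BC3H1 over 6 months of growth in 1 µM rapamycin and still cultured with it. RS_Rap was the rapamycin-sensitive parent given 100 nM rapamycin for 24 h, and RS_DMSO was the parent given the solvent DMSO for 24 h. Each of the 3 groups had 4 arrays, and all cells were grown in the same serum-containing medium. RR1 was a single line, it was compared at a higher dose and a longer exposure than RS_Rap, and no source says that the 4 replicates came from separate cultures, so p-values measure the spread between these arrays only.

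A miRNA is cut from a hairpin precursor and loaded into an Argonaute protein, where its seed, bases 2 to 8, pairs with target mRNAs. The members are a mixed set: miR-708 is conserved between mouse and human and lies in an intron of Tenm4, miR-702 is a mirtron released by splicing, miR-712 comes from the precursor of ribosomal RNA, and miR-720 was later withdrawn from the miRNA register as a tRNA fragment. Rapamycin inhibits mTORC1, a kinase complex that promotes protein synthesis and growth.

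The 7 members shown next are those that are either bright or called in a comparison below and whose mature sequence RefSeq lists under the array's name (build GRCm38.p6). Capitals mark the seed, and each sequence runs 5′ to 3′.
miR-690: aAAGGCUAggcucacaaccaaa
miR-691: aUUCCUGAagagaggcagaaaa
miR-711: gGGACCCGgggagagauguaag
miR-683: cCUGCUGUaagcuguguccuc
miR-717: cUCAGACAgagauaccuucucu
miR-718: cUUCCGCCcggccgggugucg
miR-721: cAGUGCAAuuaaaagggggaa
miR-690 lies at chr16:28599940-28599961 on the minus strand and within the span of Fgf12, which encodes an intracellular fibroblast growth factor homologue. miR-691 lies on the same chromosome at chr16:74342005-74342026, also on the minus strand, within Robo2, a Slit receptor gene. The locus of miR-711 is chr9:108969970-108969991 on the plus strand, within Col7a1, the gene for type VII collagen. The mature sequence of miR-683 occurs at 2 places on the minus strand, chr13:50544644-50544664 and chr13:50600990-50601010, so its probe cannot tell them apart. Both miR-717 at chrX:52422461-52422482 and miR-718 at chrX:74023857-74023877 are on the minus strand of the X chromosome, within Gpc3 (a cell-surface glypican) and Irak1 (a kinase of Toll-like receptor signalling). miR-721, at chr5:136375777-136375797 on the minus strand within Cux1, has a seed shared by 6 other RefSeq mouse miRNAs, among them miR-130a-3p, miR-130b-3p and miR-301a-3p. The seeds of the other 6 printed members occur in no other mature miRNA of the RefSeq table. miR-718 is the richest in G and C of the matched members, at 81.0% of its bases, against a median of 52.4% and a lowest value of 33.3% over the 25 members that could be matched.

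Those 25 members had 25 different seeds, so the matched members are a run of numbers and no seed family. Their mature sequences had 30 loci on 14 chromosomes, and 19 loci lay within the span of a protein-coding gene. Of these 19, 16 had the same strand as the gene, 1 had the opposite strand (miR-695 in Pigu), and the strand of the gene was not listed for 2. Exon and intron positions were not used here. The genes include Xpo5, whose product exports miRNA precursors from the nucleus (miR-693-5p and miR-693-3p), Akt1s1, which encodes an mTORC1 subunit (miR-707), and Rb1, a cell cycle inhibitor (miR-687). These host genes were picked for their known roles and not for any value measured on the arrays. The names of 5 further members, miR-698, miR-700, miR-701, miR-702 and miR-708, appear in the RefSeq table only as a pair of arms, and the arm on the array could not be settled, so no sequence is given for them. In all, 16 members had no sequence under the array's name. Apart from those 5, they had no listed arms either, among them miR-709, miR-720, miR-685, miR-689, miR-712, miR-696 and miR-699.

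The annotated precursors were folded in silico to see what else the members share. RNAfold gave 1 unbranched hairpin for 19 of 31 precursor loci of the series (61.3%), against 312 of 325 mouse precursors with numbers below 680 (96.0%). The folded set did not include the precursors of miR-708 and miR-700, nor the miR-692 locus on chromosome 13. It also held no precursor of the members without any RefSeq entry, among them miR-709, miR-720, miR-685 and miR-689. The median folding energy per 100 bases was -32.7 kcal/mol for the series and -42.7 kcal/mol for the lower-numbered precursors. The annotated precursors of the series were also longer, with a median of 109 bases against 82, and the part of length in these differences was not tested. The precursor of miR-711 folded as 1 unbranched hairpin at -46.8 kcal/mol per 100 bases and that of miR-718 did so at -61.8. The precursors of miR-690, miR-691, miR-683 and miR-721 were branched, at -26.6, -20.0, -39.7 and -17.6 kcal/mol per 100 bases, and that of miR-717 was unbranched at -21.7. These are computed structures and no measurement of processing in the cells.

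Each array carried the sample in the Hy3 channel and a common pool of RNA in the Hy5 channel, with no dye swap, and the quantity tested was the log2 ratio of sample to pool after background correction and loess. The labels describe the makeup of the pool in 2 ways that cannot both hold, so a ratio is read only between groups. Brightness is given as the median Hy3 pixel of a spot, averaged over the 4 spots of a probe, and is set against the highest of 7 negative-control probes on the same array. That control lay between 125 and 321 across arrays, and it was highest on the RS_DMSO arrays 3, 2 and 1, at 321, 208 and 187. RS_DMSO 3 stood apart: its log2 ratios over all 417 probes correlated with the other RS_DMSO arrays at 0.571 to 0.705, against 0.828 to 0.874 among those 3. The muscle miRNAs miR-1 and miR-206 lay above the highest negative control on 11 of 12 arrays each, while miR-133a and miR-133b lay above it on 0. Of markers of other cell types, miR-451, miR-223, miR-124, miR-122 and the 4 epithelial miRNAs miR-200a, miR-200b, miR-200c and miR-141 were above it on 0 arrays, miR-142-3p on 9 and miR-9 on 6. All arrays were separate slides scanned group after group on 1 day, so scan order and group cannot be told apart.

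Most members were dim. To count as above the negative controls, a member needed a Hy3 signal that exceeded the highest of them on at least 3 of 4 arrays of at least 1 group, as 17 of 41 members did (41.5%), against 195 of the 376 other mouse probes (51.9%). By group, 13 members passed in RR_Rap, 16 in RS_Rap and 9 in RS_DMSO, where the 3 arrays with the brightest control probes set a higher bar. On all 12 arrays 7 members passed, and 19 passed on none. In the pool channel, 20 to 34 of the 41 members on any one array had a Hy5 signal below the scanner's local Hy5 background. On all 12 arrays 10 members did so. This was not particular to the members: on every array the median Hy5 signal of all 9468 spots was below the median Hy5 background. On RS_Rap 1, for example, these were 70 and 92. In Hy3, 0 members lay below the local background on any array. Only 7 members had Hy5 above the local background on every array, namely miR-709, miR-690, miR-711, miR-691, miR-720, miR-685 and miR-689.

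**Figure D1:**
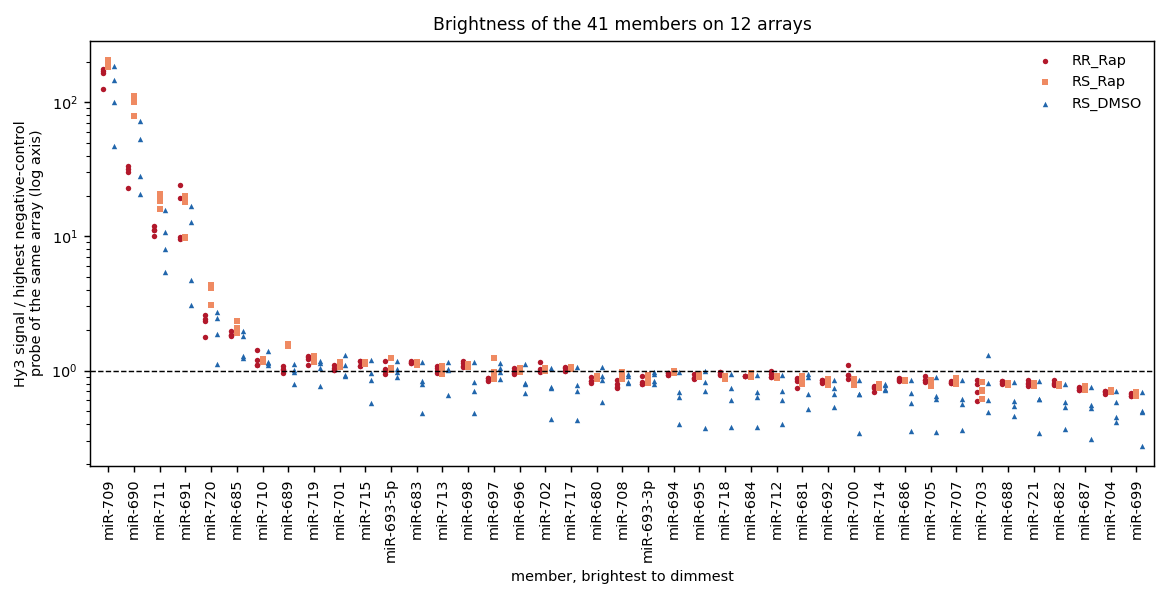
Hy3 signal of each of the 41 members divided by the highest negative-control probe of the same array (log axis), for RR_Rap, RS_Rap and RS_DMSO, 4 arrays each; the dashed line marks a ratio of 1. The 4 members miR-709, miR-690, miR-711 and miR-691 stand above 10 on average, and most others lie close to or under the line.

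The bright end held few members. By the mean over 12 arrays on the log scale, miR-709 was 149 times as bright as the highest negative control, miR-690 48.0 times, miR-711 12.4 times and miR-691 11.4 times. They were followed by miR-720 at 2.57 times and miR-685 at 1.81 times. At the other end, miR-682, miR-687, miR-704 and miR-699 lay at 0.704, 0.653, 0.636 and 0.588 of that control. Probes differ in how well they capture their target, so this order describes spots and not amounts of RNA. Among members with a RefSeq sequence, the share of G and C was barely related to this brightness (Pearson's r = -0.13 and Spearman's rho = -0.016 over 25 members, as a description).

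miR-709, which has been found in the nucleus of mouse cells, was the brightest member. Its Hy3 signal was 23205, 16331, 23438 and 22997 in RR_Rap, 23943, 23357, 25239 and 27173 in RS_Rap, and 27497, 20749, 15127 and 24636 in RS_DMSO. The 3 groups overlapped in Hy3. The pool signal on the same spots was 23392 to 36406 on the RR_Rap arrays, 15046 to 24749 on the RS_Rap arrays and 20672 to 36261 on the RS_DMSO arrays.

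miR-691 was bright but uneven. It read 1334, 3155, 2542 and 1325 in RR_Rap, 1216, 1264, 2313 and 2643 in RS_Rap, and 2375, 974, 979 and 2201 in RS_DMSO. Within each group, 2 arrays were much brighter than the other 2, and the Hy5 pool signal was higher on the same arrays (for example 1933, 4466, 3726 and 1671 in RR_Rap). The log2 ratio was therefore steadier than either channel, at -0.07 ± 0.14 in RR_Rap, 0.09 ± 0.21 in RS_Rap and -0.01 ± 0.04 in RS_DMSO (SD, n = 4 each). No comparison of miR-691 passed the test.

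miR-685 varied little in the rapamycin-treated groups, with Hy3 signals of 237 to 276 in RR_Rap, 253 to 295 in RS_Rap and 257 to 411 in RS_DMSO. Of the 4 dimmest members, miR-704 read 92.5 to 93.1 in RR_Rap, 88.4 to 91.9 in RS_Rap and 92.3 to 132 in RS_DMSO. miR-699, the dimmest, read 86.9 to 90.0 in RR_Rap, 84.5 to 86.9 in RS_Rap and 87.5 to 103 in RS_DMSO. These signals did not exceed the highest negative control on any array. Whether a change of the miRNA would be seen at that level was not tested.

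**Figure D2:**
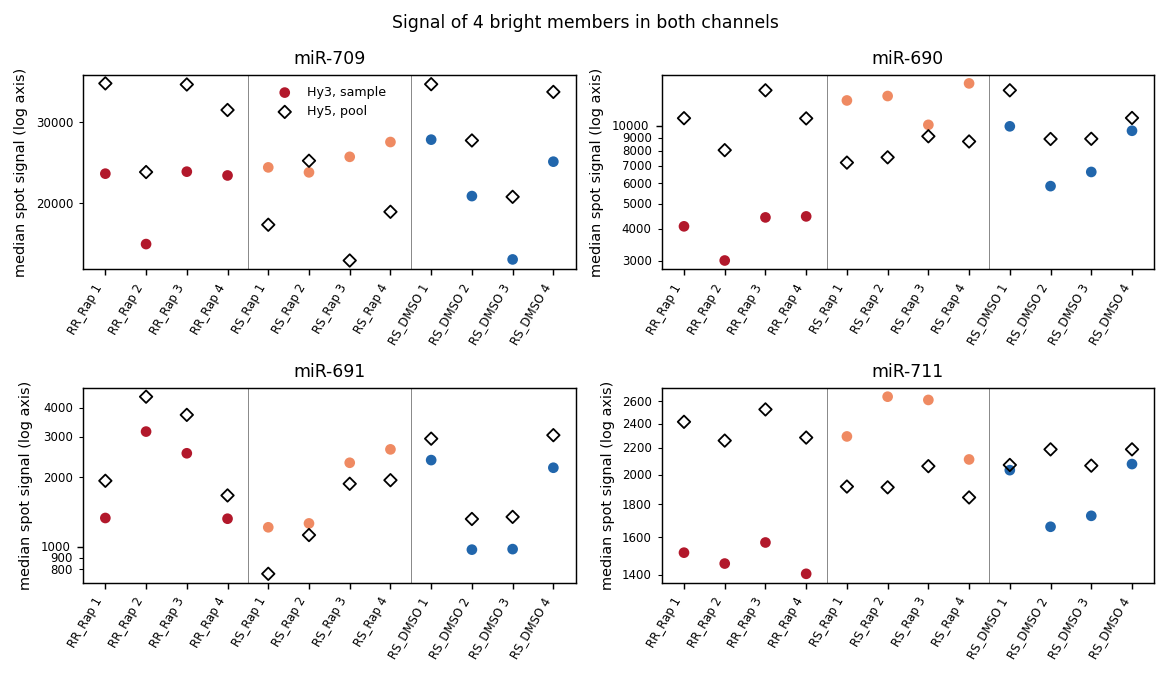
Median spot signal (log axis) of miR-709, miR-690, miR-691 and miR-711 on each of the 12 arrays, with the sample channel Hy3 as filled circles and the pool channel Hy5 as open diamonds. The sample signal of miR-690 is 3008 to 4460 in RR_Rap, 10102 to 14627 in RS_Rap and 5844 to 9968 in RS_DMSO, and that of miR-691 rises and falls with its pool signal.

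The first comparison set RR_Rap against RS_DMSO, that is, the resistant line in its drug against the solvent-treated parent. A probe was called at an adjusted p under 0.05 in 1 limma fit of the 12 arrays, the p-values being adjusted by the Benjamini-Hochberg method across 417 probes. In this comparison 95 of 417 probes were called, which is 22.8%, and among the members 7 of 41 were called (17.1%). Of the members 3 were higher and 4 lower, against 12.9% of all probes higher and 9.83% lower. This split moved with the processing: the members called higher and lower numbered 5 and 3 without loess, 0 and 6 without background subtraction, 1 and 8 with processed signals, and 0 and 5 in the deposited value table. Over all 417 probes, the counts in the same order were 74 and 28, 47 and 31, 47 and 54, and 32 and 44. The median log2 change was -0.06 over the members and -0.01 over all probes. On 8 members the arrays of the 2 groups did not overlap, against 24.9% of all probes.

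miR-690 was the member that changed most in RR1 cells. Its Hy3 signal was 4082, 3008, 4420 and 4460 in RR_Rap, 12560, 13066, 10102 and 14627 in RS_Rap, and 9968, 5844, 6632 and 9582 in RS_DMSO. In this raw signal the groups did not overlap, with RR_Rap lowest and RS_Rap highest. On the log2 scale the ratio to the pool was -0.92 ± 0.20 in RR_Rap, 0.25 ± 0.31 in RS_Rap and 0.15 ± 0.18 in RS_DMSO (SD, n = 4 each). miR-690 was thus 2.09-fold lower in RR_Rap than in RS_DMSO (log2 change -1.06, SE 0.15, adjusted p = 0.00019, limma). The change lay between -1.10 and -0.94 under the 9 other ways of processing and fitting, all of them called, and it was called without any one array. In bulk RNA, a miRNA that fewer cells carry cannot be told apart from one that is less abundant in each cell. Of the 4 muscle miRNAs, miR-1 and miR-206 gave lower Hy3 means in RR_Rap: miR-1 averaged 168 in RR_Rap, 275 in RS_Rap and 253 in RS_DMSO, and miR-206 averaged 190, 320 and 288 in the same order. The other 2 lay below the highest negative control on every array, with miR-133a at 101 in RR_Rap, 98.7 in RS_Rap and 105 in RS_DMSO and miR-133b at 110.2, 107 and 114. Their part in the change of miR-690 was not tested.

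miR-711, from the Col7a1 locus, was also lower in the resistant line. It read 1516, 1458, 1571 and 1406 in RR_Rap, 2292, 2641, 2610 and 2112 in RS_Rap, and 2033, 1662, 1728 and 2078 in RS_DMSO. The RR_Rap arrays were below all others in Hy3, and the RS_Rap arrays were above all others. The log2 ratio was -0.29 ± 0.12 in RR_Rap, -0.01 ± 0.16 in RS_Rap and 0.27 ± 0.09 in RS_DMSO (SD, n = 4 each), which gave a 1.47-fold lower level in RR_Rap than in RS_DMSO (log2 change -0.55, SE 0.08, adjusted p = 0.00033, limma). With the sample channel alone the change shrank to -0.16 and was not called, and it was called under the 8 other ways tried and without any one array.

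The remaining calls of this comparison were small and concerned spots near or below the negative controls. miR-708 was 1.25-fold lower in RR_Rap than in RS_DMSO (log2 change -0.32, SE 0.06, adjusted p = 0.0017, limma). Its log2 ratios were -0.36, -0.20, -0.42 and -0.30 in RR_Rap and 0.05, 0.04, 0.02 and -0.12 in RS_DMSO, with no overlap. Its Hy3 signal was 97.5 to 119 in RR_Rap and 109 to 304 in RS_DMSO, above the highest negative control on 0 of 12 arrays, and its Hy5 signal was below the local background on 10. miR-701 was 1.23-fold lower (log2 change -0.30, SE 0.07, adjusted p = 0.0093), with Hy3 signals of 132 to 153 in RR_Rap and 144 to 417 in RS_DMSO, the highest of them on RS_DMSO 3. Without that array both were still called. The call of miR-708 was lost without loess (-0.26) and that of miR-701 without loess, with processed signals, with the sample channel alone and in the value table.

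miR-700 was 1.27-fold higher in RR_Rap than in RS_DMSO (log2 change 0.35, SE 0.07, adjusted p = 0.0030, limma). Its log2 ratios were -0.22, -0.29, 0.03 and -0.28 in RR_Rap and -0.61, -0.54, -0.44 and -0.56 in RS_DMSO, so the groups were apart, although the Hy3 signals of 122 to 145 in RR_Rap and 109.5 to 139 in RS_DMSO overlapped. It exceeded the highest negative control on 1 of 12 arrays, and its call was lost without background subtraction (0.20) and in the value table (0.075). miR-683 was 1.10-fold higher (log2 change 0.14, SE 0.04, adjusted p = 0.021), and this sign turned to -0.0039 with the scanner's processed signals. Of 9 other ways of processing and fitting, 4 kept the miR-683 call. miR-718, the G- and C-rich member from Irak1, was 1.11-fold higher (log2 change 0.15, SE 0.05, adjusted p = 0.038), and its sign turned to -0.048 in the deposited value table. The miR-683 call was lost without any one of 3 arrays (RS_DMSO 1, RR_Rap 3 or RR_Rap 4, lowest value 0.11), and the miR-718 call without any one of 7 (RS_DMSO 1, RS_DMSO 3, RS_Rap 1 or any RR_Rap array, lowest value 0.12). Of 8 other ways of processing and fitting, 1 kept the miR-718 call.

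**Figure D3:**
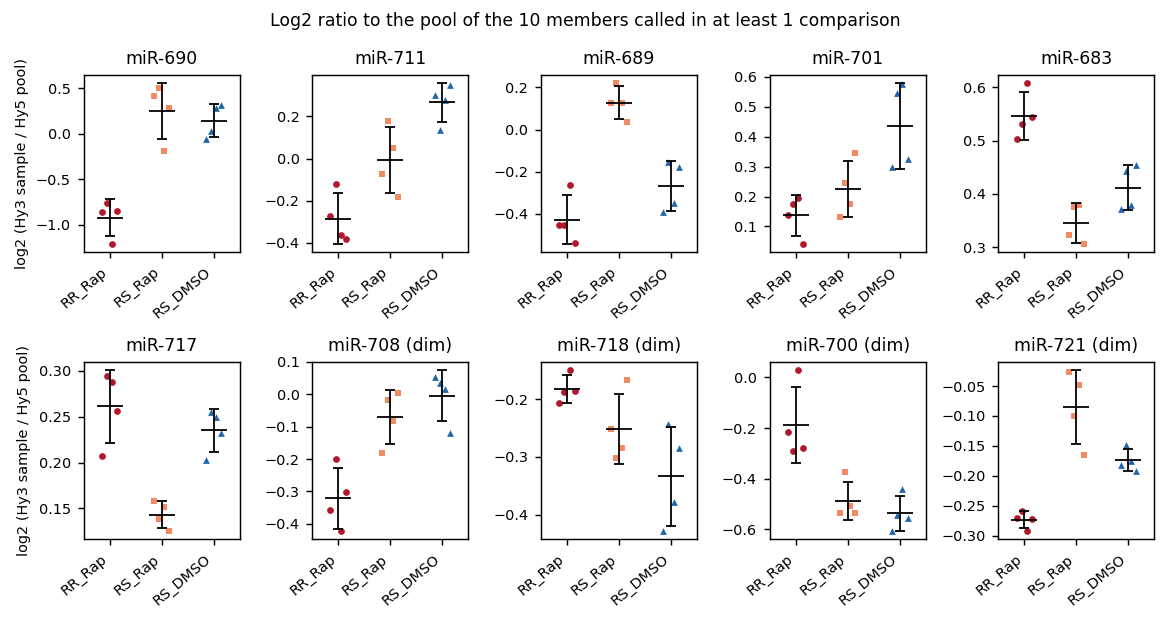
Log2 ratio of sample to pool on each array for the 10 members called in at least 1 comparison, with the mean and SD of 4 arrays per group in black; each panel has its own vertical scale and "dim" marks members not above the negative controls. miR-690 averages -0.92 in RR_Rap against 0.25 in RS_Rap and 0.15 in RS_DMSO, while the panels of miR-717, miR-718 and miR-721 span under 0.3 log2 units.

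The second comparison set RR_Rap against RS_Rap, where both groups were in rapamycin but at different doses and for different times. It shares the RR_Rap arrays with the first, so both lists of calls are not independent. Here 118 of 417 probes were called (28.3%), and of the members 8 of 41 (19.5%). Of the members 3 were higher and 5 lower, against 14.9% of all probes higher and 13.4% lower. Omitting loess gave 0 members higher and 10 lower, against 21 and 100 of all 417 probes. The value table gave 0 and 11, against 15 and 121. The groups did not overlap on 10 members, against 39.8% of all probes. The median log2 change was -0.00083 over the members and 0.03 over all probes.

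miR-690 was 2.25-fold lower in RR_Rap than in RS_Rap (log2 change -1.17, SE 0.15, adjusted p = 9.12e-05, limma). Without loess the change was -2.05, again called. It lay between -2.05 and -1.10 under the 9 other ways and between -1.32 and -1.07 without single arrays. miR-711 was 1.21-fold lower (log2 change -0.28, SE 0.08, adjusted p = 0.025, limma). Its change lay between -0.99, without loess, and -0.13 under the 9 other ways. The call was lost with the smaller normexp offset, the processed signals and the sample channel alone. Leaving out single arrays gave -0.34 to -0.22. The call was lost without any one of 5 arrays (RS_Rap 2, RS_Rap 3, RR_Rap 1, RR_Rap 3 or RR_Rap 4).

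miR-689 set RS_Rap apart from both other groups in its ratio, although its spots were near the negative controls. It averaged 1.15 times the highest negative control. The number of arrays on which it exceeded that control was 3 of 4 in RR_Rap, 4 in RS_Rap and 2 in RS_DMSO. Its Hy3 signal was 140, 126, 141 and 140 in RR_Rap, 189, 201, 194 and 207 in RS_Rap, and 188, 166, 312 and 148 in RS_DMSO. In Hy3 the RS_Rap arrays lay above all RR_Rap arrays and overlapped with RS_DMSO, whose array 3 was the brightest of all. The log2 ratios were -0.45, -0.45, -0.26 and -0.54 in RR_Rap, 0.13, 0.22, 0.13 and 0.03 in RS_Rap, and -0.39, -0.15, -0.35 and -0.18 in RS_DMSO. In these ratios RS_Rap was above both other groups with no overlap. miR-689 was 1.47-fold lower in RR_Rap than in RS_Rap (log2 change -0.55, SE 0.07, adjusted p = 9.12e-05, limma), a call kept under all 9 other ways of processing and fitting and without any one array. Against RS_DMSO the RR_Rap change was -0.16 (adjusted p = 0.14), which was not called here but was called without loess, at -0.39.

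The other calls against RS_Rap were, like that of miR-689, on spots near or below the negative controls. miR-708 was 1.19-fold lower (log2 change -0.25, SE 0.06, adjusted p = 0.0074), a call kept in 4 of 8 other ways with values from -0.77 to -0.14, and miR-721 was 1.14-fold lower (log2 change -0.19, SE 0.04, adjusted p = 0.0020), and the change of miR-721 had its sign turned to 0.046 when the sample channel was used alone. miR-700 was 1.23-fold higher (log2 change 0.30, SE 0.07, adjusted p = 0.0074), miR-683 1.15-fold higher (0.20, SE 0.04, adjusted p = 0.0016) and miR-717 1.09-fold higher (0.12, SE 0.03, adjusted p = 0.016), and in the deposited value table the signs of these 3 turned, to -0.055, -0.027 and -0.024. The call was kept in 5 of 8 other ways for miR-700, in 5 of 9 for miR-683, in 3 of 9 for miR-717 and in 5 of 8 for miR-721. The Hy5 signals of miR-683 and miR-717 lay below the local background on all 12 arrays and that of miR-721 on 11. miR-721 had Hy3 signals of 106 to 111 in RR_Rap and 100.2 to 103 in RS_Rap, so the raw sample signal was higher in RR_Rap while the ratio was lower.

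miR-720, the tRNA fragment, gave Hy3 signals of 328, 234, 340 and 326 in RR_Rap, 543, 529, 390 and 541 in RS_Rap, and 464, 385, 356 and 358 in RS_DMSO. The RR_Rap arrays were the lowest in Hy3. The log2 ratio was -0.42 ± 0.10 in RR_Rap, -0.15 ± 0.16 in RS_Rap and -0.28 ± 0.21 in RS_DMSO (SD, n = 4 each), and the change of -0.27 against RS_Rap missed the threshold (adjusted p = 0.078). It was called without loess, at -0.76, and in the deposited value table, at -0.77.

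**Figure D4:**
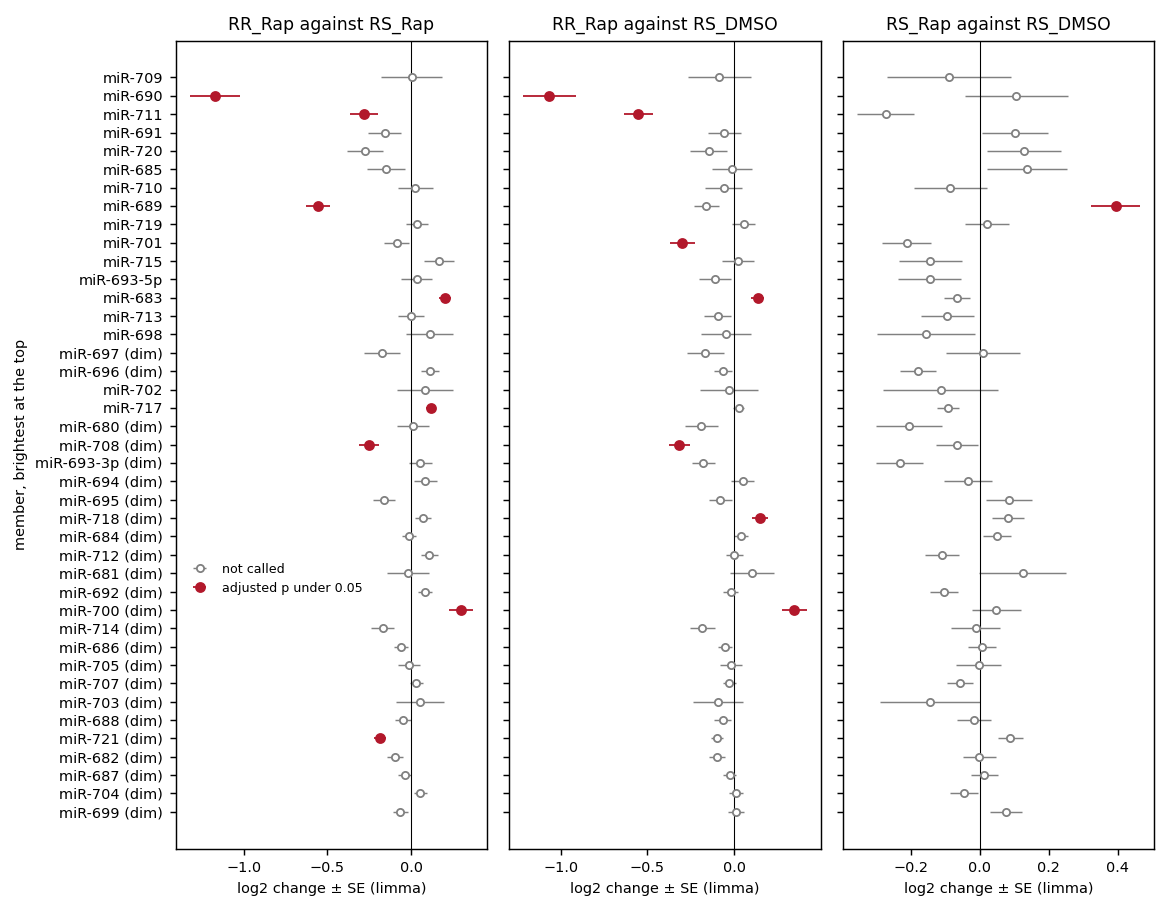
Log2 change with its SE from the limma fit for all 41 members, brightest at the top, in RR_Rap against RS_Rap, RR_Rap against RS_DMSO and RS_Rap against RS_DMSO; filled points have an adjusted p under 0.05 and "dim" marks members not above the negative controls. miR-690 lies at -1.17 and -1.06 in the RR_Rap comparisons, and apart from miR-690, miR-689 and miR-711 every called change is within 0.35 log2 units of 0.

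The third comparison asked what 24 h of rapamycin did to the sensitive cells, RS_Rap against RS_DMSO. Of the 417 probes 14 were called (3.36%), and of the 41 members 1 was called, miR-689 (2.44%), which was higher in RS_Rap; 1.68% of all probes were higher and 1.68% lower. miR-689 was 1.31-fold higher in RS_Rap than in RS_DMSO (log2 change 0.39, SE 0.07, adjusted p = 0.015, limma), was called without any one array, and lost the call only in the deposited value table, at 0.24. Its mean Hy3 signal was 198 in RS_Rap and 203 in RS_DMSO, and its Hy5 pool signal was 121 to 142 and 134 to 172. With the pool channel alone, quantile normalised, miR-689 was 0.34 log2 units higher in RS_Rap (adjusted p = 0.059, limma). The part of the pool in this call was not tested. The groups did not overlap on 4 members, against 14.6% of all probes. The median log2 change was -0.03 over the members and -0.02 over all probes. Without RS_DMSO 3, 4 members and 26 of 417 probes were called.

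For the bright members this comparison depended on loess. With loess, the log2 change was 0.11 for miR-690 (adjusted p = 0.67), -0.09 for miR-709 (0.78), 0.10 for miR-691 (0.51), 0.13 for miR-720 (0.47) and -0.27 for miR-711 (0.080). Without loess the same 5 were higher in RS_Rap and called, at 1.04, 0.91, 0.84, 0.62 and 0.51, so that miR-709 and miR-711 changed sign. Without loess 118 probes were called, 117 higher and 1 lower, against 7 higher and 7 lower with it, and among the members 10 were called, all higher, of which miR-689 alone was also called with loess. The deposited value table, which follows the raw Hy3 over Hy5 ratio, gave 105 higher and 6 lower. The pool, which is the same RNA on every array, gave lower signals for miR-711 on every RS_Rap array than on any other array, at 1845 to 2062 on RS_Rap arrays, against 2258 to 2524 on RR_Rap arrays and 2066 to 2189 on RS_DMSO arrays. For miR-690 the Hy5 signal was 7210 to 9120 on RS_Rap arrays, against 8058 to 13752 on RR_Rap arrays and 8903 to 13752 on RS_DMSO arrays. With the sample channel alone, quantile normalised, the changes were 0.30 for miR-690, 0.08 for miR-709, -0.20 for miR-691, 0.24 for miR-720 and -0.04 for miR-711, and none of these was called.

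The split of calls by direction moved with loess in the RR_Rap comparisons too. Against RS_Rap, 62 probes were higher and 56 lower with loess, 21 higher and 100 lower without it, and 15 higher and 121 lower in the value table. Against RS_DMSO, the counts were 54 higher and 41 lower with loess, 74 higher and 28 lower without it, and 32 higher and 44 lower in the value table. miR-690 and miR-711 were lower in RR_Rap under all 3, in both comparisons. miR-709 was at 0.00297 against RS_Rap with loess and at -1.05 without it.

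**Figure D5:**
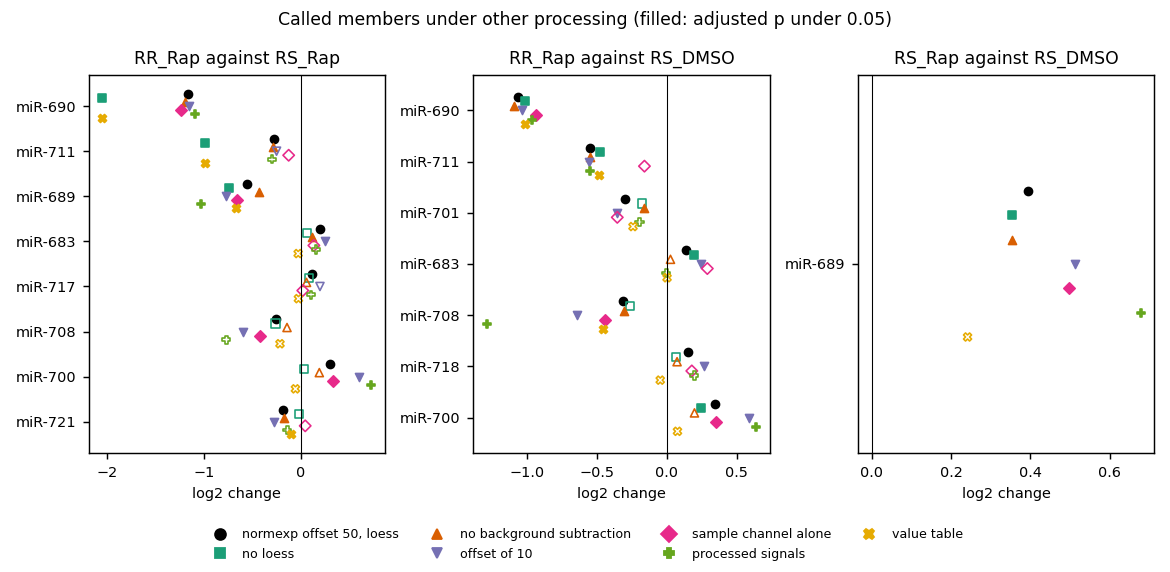
Log2 change of each called member under the processing used here and 6 others, for the 3 comparisons; filled symbols have an adjusted p under 0.05. miR-690 stays below -0.9 in both RR_Rap comparisons and miR-689 stays above 0 in RS_Rap against RS_DMSO, whereas the symbols of miR-683, miR-700, miR-717, miR-718 and miR-721 reach the other side of 0.

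The members miR-712, miR-702 and miR-696, also of known origin or role, lay near or below the highest negative control and were uncalled. miR-712, from the ribosomal RNA precursor, read 121 to 130 in RR_Rap, 110 to 118 in RS_Rap and 122 to 131 in RS_DMSO, and passed its highest negative control on 0 arrays. The mirtron miR-702 read 135 to 152 in RR_Rap, 130 to 134 in RS_Rap and 138 to 153 in RS_DMSO, above that control on 6 arrays. miR-696, reported in mouse muscle as a regulator of the metabolic coactivator PGC-1α, read 125 to 139 in RR_Rap, 122 to 137 in RS_Rap and 141 to 259 in RS_DMSO, above it on 3. Their log2 changes lay between -0.18 and 0.11 in the 3 comparisons, and none was called. Over all members, the median SD of the log2 ratio among the 4 arrays was 0.064 in RR_Rap, 0.068 in RS_Rap and 0.11 in RS_DMSO, close to 0.057, 0.062 and 0.11 for the other probes.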

How the data were processed

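The arrays were scanned in both channels and read with Agilent Feature Extraction (version 9.5.3.1 in the deposited headers), which gives a median and mean pixel intensity and a local background intensity for each of 9468 spots. The authors also deposited a table of 1 log2 value per probe and array. Its normalization is not stated in the sources used here; it followed the raw log2 Hy3/Hy5 ratio (r between 0.977 and 1.00 per array) with column medians of 0.39 to 0.60, so its centring is unknown. From the scanner intensities, mean signals were background-corrected (normexp, offset 50) and normalised by loess within each array in limma 3.58.1 (R 4.3.3), with control and flagged spots at weight 0. The 4 spots of a probe were averaged, and 1 fit over the 12 arrays gave the 3 comparisons, adjusted over 417 mouse probes. Precision is limited by the number of arrays. Groups and replicate numbers came from the sample titles. No sign was seen that the same number in 2 groups paired arrays: their deviations correlated at -0.11 to 0.15. Arrays with different numbers correlated at -0.22 to 0.22. Low correlations cannot exclude a pairing by culture or day. On simulated log2 ratios for RR_Rap against RS_DMSO over 417 probes, 98.0% of changes of 0.5 log2 units and all of 1 unit were recovered. The changes were added to the log2 ratios directly, with no background correction or loess, and 217 probes were left unchanged. The simulation therefore checks the fit alone and cannot show whether a change on a dim spot would be seen. Precursors were folded with RNAfold 2.7.2, and all sequences and loci are from RefSeq, GRCm38.p6.

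Named miRNAs are every member called in a comparison, the 6 brightest, the 4 dimmest and 8 with a known origin or role (21 in all); further members are named for their sequence, locus or host gene. Members, lists and rules were chosen with earlier results of these data known. Alternatives comprised no loess, no background subtraction, an offset of 10, the sample channel alone, the scanner's processed signals, the deposited table, a filter on dim probes, a replicate block, array weights and leaving out each array.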

Additional observations from a re-analysis of the deposited data

Results flagged for a closer look

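Among 63 groups of 4 arrays (21 members in 3 groups), 2 held an array whose log2 ratio was far from the other 3 by Dixon's test, where chance alone gives about 1 in 20. miR-699 read -0.063 on RR_Rap 2, against -0.12 on each of the other 3 RR_Rap arrays, at a Hy3 signal of 87.5, below the negative controls. miR-700 read -0.37 on RS_Rap 2, against -0.53 to -0.51 on the other RS_Rap arrays, at a Hy3 signal of 107. Both were below the highest negative control on the arrays concerned.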

How the results depend on the processing

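Calls of miR-690 against both RS_Rap and RS_DMSO, and of miR-689 in RR_Rap against RS_Rap, were kept under every alternative. In RS_Rap against RS_DMSO the members called, 1 with the processing used, numbered 10 without loess, 4 without background subtraction, 3 with processed signals, 7 in the value table, and 2 with either the replicate block or array weights; leaving out single arrays gave 1 to 4. For all probes, 14 became 118 without loess, 53 without background subtraction, 35 with processed signals, 2 with the sample channel alone and 111 in the value table, and 4 to 37 without single arrays (4 without RS_DMSO 2, 26 without RS_DMSO 3, 37 without RS_DMSO 4, 6 without RS_Rap 4, 7 without RR_Rap 1). In RR_Rap against RS_DMSO, the 7 members became 5 to 8 without single arrays. The filter on dim probes gave 4 calls among the 17 members it left, against 79 among the 212 probes it left. The 95 probes became 55 with the sample channel alone and 70 to 104 without single arrays. In RR_Rap against RS_Rap, the 8 members became 5 with processed signals, 4 with the sample channel alone, 15 with array weights and 7 to 10 without single arrays. With the filter, 5 of 17 members were called, against 93 of 212 probes. The 118 probes became 88 with processed signals, 54 with the sample channel alone, 183 with array weights and 93 to 145 without single arrays. With the replicate block, 2, 7 and 9 members were called in RS_Rap against RS_DMSO, RR_Rap against RS_DMSO and RR_Rap against RS_Rap. Of all 417 probes, 20, 89 and 113 were called in the same order. Array weights gave 19 probes in RS_Rap against RS_DMSO. Members above the negative controls, 17 of 41, became 31 against the median control and were 16 to 17 without single arrays, an alternative chosen after the data were seen.

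Signs turned as follows. In RS_Rap against RS_DMSO, miR-709 was at 0.91 and 0.90 when loess was omitted and when the value table was used, miR-711 at 0.51 and 0.50, and miR-687 at -0.54 with processed signals. In RR_Rap against RS_DMSO, miR-683 was at -0.0039 and miR-699 at -0.62 with processed signals, and miR-718 at -0.048 in the value table. In RR_Rap against RS_Rap, omitting loess and using the value table put miR-709 at -1.05 and -1.05, and miR-718 at -0.22 and -0.29, while miR-683, miR-700 and miR-717 were at -0.027, -0.055 and -0.024 in the value table, and miR-721 at 0.046 with the sample channel alone. The causes were not tested. In RS_Rap and in RR_Rap against RS_DMSO, the median over all probes, -0.02 and -0.01 with the processing used, was 0.11 in both without loess and -0.13 in both with processed signals.

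A slide or scan block was not run, since every array was a slide of its own. For 24 of 41 members, Hy3 did not pass the negative controls in any group, which limits what their ratios can show.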
